A study of Homo sapiens with 6 samples.

Results

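The 10 genes described here were chosen by name. They are the FOS family (FOS, FOSB, FOSL1 and FOSL2), the JUN family (JUN, JUNB and JUND), MYC, the small MAF factor MAFF and the immediate early gene IER3. All 10 were found among the 30015 genes of the table, and all 10 were among the 15251 genes tested. RNA was sequenced from HMV-II, an established human melanoma cell line of vaginal origin, in order to learn which genes depend on EZH2, the enzyme that places the repressive H3K27 methyl mark. The design held 2 groups of 3 libraries each. Vector cells are labelled as wild type and carried a scrambled control shRNA, and shEZH2 cells carried an shRNA against EZH2. Both were made as stable lines with lentivirus and puromycin, both were grown in F10 medium with serum, and both are labelled as untreated. The table heads the knockdown columns with the first of the shRNAs, so the knockdown group stands for 1 shRNA. The labels do not say whether the 3 libraries of a group came from separate cultures, so p-values measure the spread between these libraries, which may be technical.

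AP-1 is a transcription factor made of a pair of bZIP proteins, usually a FOS family member with a JUN family member, or of a pair of JUN proteins. Several of these genes are immediate early genes, which are switched on within minutes of a growth or stress signal without new protein synthesis, and others such as FOSL1 accumulate later and persist while ERK signaling lasts. FOSL1 and JUN are known in melanoma for their high levels in dedifferentiated, invasive cells, and MYC drives growth and metabolism with its partner MAX.

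EZH2 mRNA itself was lower in every shEZH2 library. In the order of the replicate numbers, used throughout, its normalized counts were 483, 437 and 552 for Vector and 237, 247 and 225 for shEZH2. The difference was -1.04 on the log2 scale (SE 0.14, limma adjusted p = 0.0142). Depth was 13400290 to 15923029 reads in Vector and 16129171 to 19128939 in shEZH2 libraries. Vector replicate 2 stood apart from the other Vector libraries in a way that followed gene length. Gene lengths here are those given in the table, which for some genes are less than the span of the coordinates. The median deviation of Vector replicate 2 from Vector replicates 1 and 3 was -0.54 (log2) in the fifth of genes with the shortest lengths (up to 2323 bases). It was 0.42 in the fifth with the longest (from 7931 bases). The members lie on both sides of this trend, so the log2 fold change of each member is also given without Vector replicate 2. The mean chi-square per gene between the reads of 2 libraries was 2.14 for Vector replicates 1 and 3. It was 101 to 104 for pairs with Vector replicate 2, and 6.29 to 20.7 among shEZH2 libraries. Without Vector replicate 2 the control spread comes from 2 libraries that differed little, and small adjusted p-values in that fit rest partly on this. The melanocyte markers SOX10 (mean 17491 normalized counts in Vector and 14571 in shEZH2), PMEL (60992 and 56472) and TYR (6343 and 3148) were expressed in both groups. Of the 10 melanocyte markers tested, 2 were called higher, TYRP1 (1.68) and MLANA (0.88), and 1 lower, TYR (-0.97), with a median log2 fold change of 0.09, and the summed level of all 11 melanocyte markers was 76505 to 102002 in Vector and 80271 to 86675 in shEZH2. Of the other cell types, all 8 fibroblast markers were in the table and summed to 182 to 248 in Vector and 252 to 315 in shEZH2. Most of that sum was LUM (148.0 and 247), and the defining fibroblast collagen COL1A1 stood at 1.71 and 4.14. HMV-II is a cell line, and the source of this marker RNA was not tested. Leukocyte markers (4 of 6 in the table) summed to 9.16 to 32.6 in Vector and 13.4 to 22.4 in shEZH2, endothelial markers (3 of 4) to 22.4 to 67.5 and 21.0 to 27.9, and epithelial markers (4 of 6), mainly CDH1 and KRT8, to 596 to 660 and 517 to 552. In bulk RNA, fewer cells of a type and less RNA per cell cannot be told apart.

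**Figure D1:**
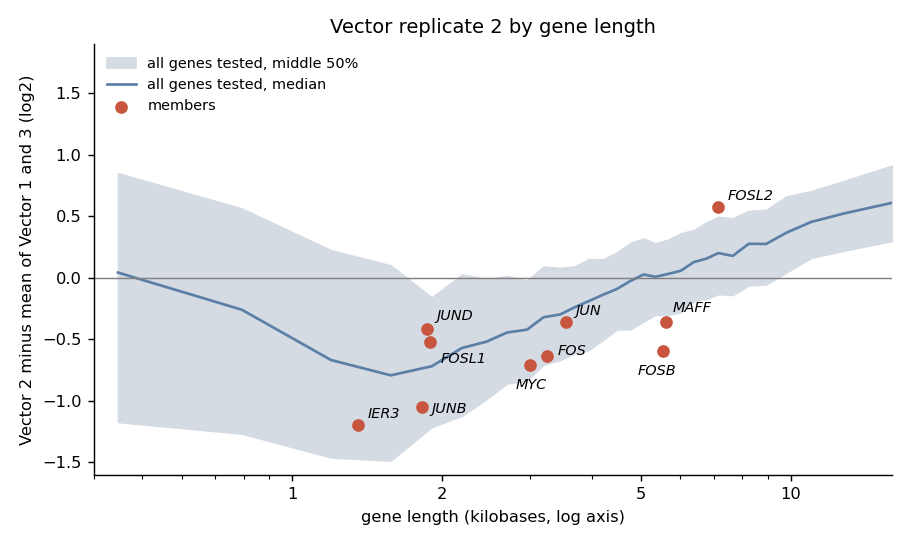
Deviation of Vector replicate 2 from the mean of Vector replicates 1 and 3 (log2, vertical axis) against gene length in kilobases (log axis). The line is the median and the band the middle 50% of all genes tested, and the red points are the 10 members. FOSL2 lies above 0 at 0.58, and the other 9 members lie below 0, down to -1.20 for IER3.

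With EZH2 knockdown, JUN and FOSL2 mRNA rose by 1.03 and 1.06 on the log2 scale (0.91 and 1.26 without Vector replicate 2), while MYC, FOSB, MAFF and IER3 had values between -0.17 and 0.14 and passed no test over the 6 libraries. FOSL1, per kilobase the most abundant FOS or JUN gene of these cells, and JUND also passed the study's threshold (unadjusted p under 0.05 and a change of more than 1.5-fold), by smaller amounts that depended on Vector replicate 2. In all, 4 of 10 members were called higher, where 7.55% of all genes tested were, and 0 were called lower, where 7.07% were. At an unadjusted p under 0.05 alone, 0 members were lower with limma, DESeq2 and edgeR, and 2 were lower (MAFF and IER3) when Vector replicate 2 was left out, as were 15.7% of all genes then. After Benjamini-Hochberg adjustment over all genes tested, 2 members stayed under 0.05, JUN and FOSL2, where 2.28% of all genes were higher at that level. With DESeq2, 4 members did, FOSL1 and JUND included, where 5.05% of the 15248 genes with an adjusted p were. In 5 members, FOS, FOSL1, FOSL2, JUN and JUND, the 3 shEZH2 values were all above the 3 Vector values, which was the case for 18.4% of all genes. The median log2 fold change over the 10 members was 0.39, beside 0.04 over all genes tested. Without Vector replicate 2 that median was 0.11, beside -0.00 over all genes, and JUN and FOSL2 were the 2 members still called higher, where 7.15% of all genes were. With the same library left out, 4 members (JUN, FOSL2, FOSL1 and JUND) had an adjusted p under 0.05 in the higher direction, where 9.92% of the 15123 genes tested did, and 1 (IER3) in the lower, where 9.18% did.

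**Figure D2:**
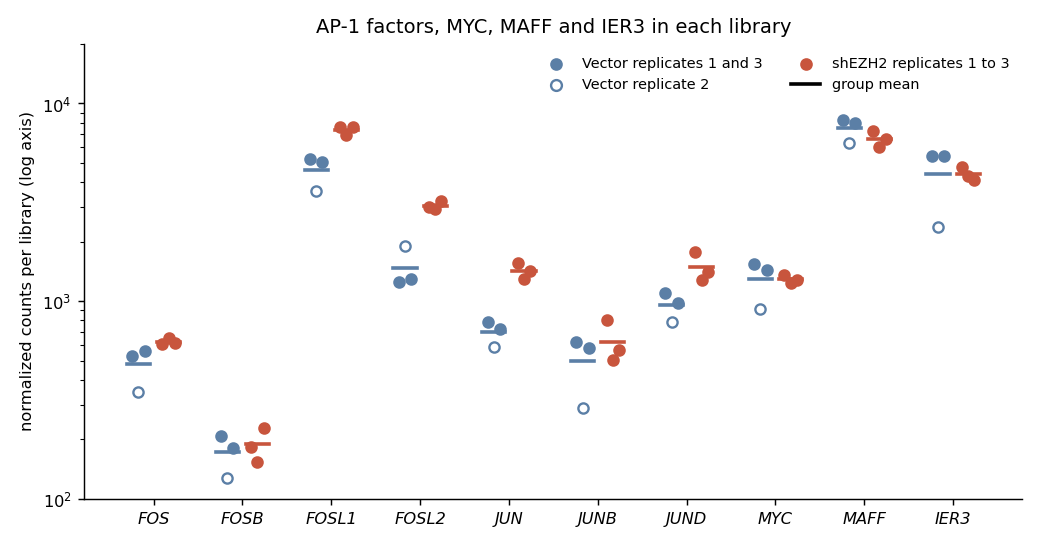
Normalized counts of each member in each library (vertical log axis). Filled blue points are Vector replicates 1 and 3, open blue points Vector replicate 2, red points shEZH2 replicates, and bars group means. JUN and FOSL2 are separated between groups, whereas MYC, MAFF and IER3 overlap, with Vector replicate 2 below the other Vector libraries for both MYC and IER3.

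Among the JUN family, JUN, the partner that binds DNA with any FOS protein and also activates its own promoter, changed most. Its normalized counts were 787, 587 and 723 in Vector and 1558, 1288 and 1419 in shEZH2. The lowest knockdown library was well above the highest control library. Mean levels were 699 ± 102 and 1422 ± 135 (SD, n = 3), a log2 fold change of 1.03 (SE 0.16, 95% interval 0.66 to 1.40, limma adjusted p = 0.0196). The exact permutation test gave p = 0.1, the smallest that 3 against 3 libraries allow. The call held in all 16 alternatives, and with single libraries left out the log2 fold change lay between 0.91 and 1.12. Its adjusted p rose above 0.05 without Vector replicate 3 (0.0655) or without shEZH2 replicate 1 (0.108), 2 (0.0849) or 3 (0.141), and fell to 0.000163 without Vector replicate 2, where the log2 fold change was 0.91. The gene lies at chr1:58780788-58784327 on the minus strand (GRCh38, as in the table) and is 3540 bases long.

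JUND, which is often the JUN protein of resting cells and is less dependent on signals, showed normalized counts of 1099, 781 and 985 in Vector and 1783, 1276 and 1402 in shEZH2. The groups did not overlap, but shEZH2 replicate 1 stood above the other knockdown libraries. The means were 955 ± 161 and 1487 ± 264, with a log2 fold change of 0.64 (SE 0.19, 95% interval 0.20 to 1.08), and after adjustment it did not pass (limma adjusted p = 0.104). It fell below the fold threshold without Vector replicate 2 (0.50, adjusted p = 0.0214), without shEZH2 replicate 1 (0.50, adjusted p = 0.301) and with the gene length trend removed (0.40). Genes of like length had a median log2 fold change of 0.29 in the same comparison. JUND is 1863 bases long, at chr19:18279760-18281622 on the minus strand.

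JUNB, which can restrain the growth-promoting action of JUN, had 619, 289 and 581 normalized counts in Vector and 802, 502 and 566 in shEZH2. The groups overlapped, and Vector replicate 2 was the lowest of the 6. Its log2 fold change of 0.38 (SE 0.32, 95% interval -0.36 to 1.12, limma adjusted p = 0.491) was 0.03 without that library. The whole gene (chr19:12791496-12793315, plus strand) lies within HOOK2 on the other strand, and strand use in the counting is not given in the sources used here, so reads of the pair may not be fully separated.

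FOSL1, which encodes FRA-1, the AP-1 subunit stabilized by ERK, dominated the FOS family. It had 5262, 3593 and 5043 normalized counts in Vector and 7638, 6939 and 7584 in shEZH2. All knockdown libraries were above all control libraries, and Vector replicate 2 was the lowest. From 4633 ± 907 the mean went to 7387 ± 389, a log2 fold change of 0.69 (SE 0.18, 95% interval 0.27 to 1.11) that passed the study's threshold but not adjustment (limma adjusted p = 0.0787, DESeq2 adjusted p = 0.00925). Without Vector replicate 2 the difference was smaller and its error too, at 0.52 (adjusted p = 0.00190), and with the gene length trend removed it was 0.45 (adjusted p = 0.0440), both under the fold threshold. Genes of its length (1887 bases, chr11:65892049-65900573, minus strand) had a median log2 fold change of 0.30.

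FOSL2, which encodes FRA-2, rose most among the FOS family. Its normalized counts were 1249, 1898 and 1294 in Vector and 3012, 2920.3 and 3196 in shEZH2. The knockdown libraries were close together and all above the controls, among which Vector replicate 2 was here the highest. The means were 1480.1 ± 362 and 3043 ± 140.2, a log2 fold change of 1.06 (SE 0.18, 95% interval 0.63 to 1.49, limma adjusted p = 0.0266, exact permutation p = 0.1). In contrast to FOSL1 and JUND, the difference was larger without Vector replicate 2 (1.26, adjusted p = 4.00e-06) and with the length trend removed (1.14, adjusted p = 0.00489), and the median of genes of like length was -0.06. The call held in all 16 alternatives, while the adjusted p rose above 0.05 without Vector replicate 1 (0.0819) or 3 (0.0886) or shEZH2 replicate 1 (0.130), 2 (0.117) or 3 (0.165). FOSL2 is the longest member, with a gene length of 7157 bases, less than its span at chr2:28392448-28417312 on the plus strand.

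FOS, the classical serum-induced partner of JUN, had 530.2, 349 and 559 normalized counts in Vector and 610.3, 648 and 615 in shEZH2. The groups did not overlap, yet Vector replicates 1 and 3 lay only a little under the knockdown libraries. Its log2 fold change was 0.41 (SE 0.20, 95% interval -0.05 to 0.87, limma adjusted p = 0.259) and 0.20 without Vector replicate 2. FOSB, the least abundant member and a close relative of FOS, had 208, 128 and 181 in Vector and 183, 154 and 229 in shEZH2, with full overlap. Its log2 fold change was 0.14 (SE 0.24, 95% interval -0.41 to 0.69, limma adjusted p = 0.737), or -0.06 without Vector replicate 2. FOSB (chr19:45467995-45475179, plus strand) is covered along its whole length by ERCC1 (mean 1012 normalized counts), which is read in the opposite direction, and reads of the pair may not be fully separated. FOS lies at chr14:75278774-75282230 on the plus strand.

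**Figure D3:**
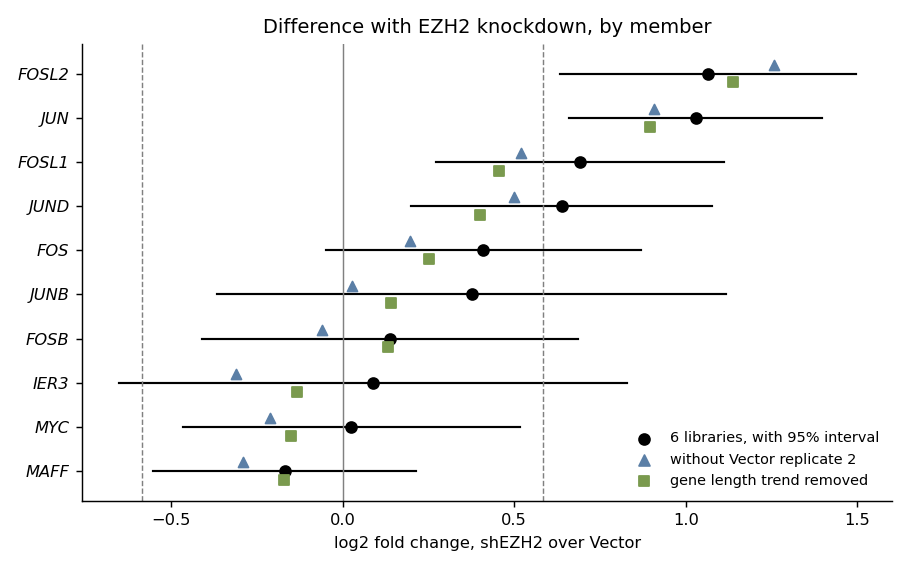
Log2 fold change of each member, shEZH2 over Vector, in order of size. Black points with lines are the values over 6 libraries with 95% intervals, blue triangles the values without Vector replicate 2, green squares those with the gene length trend removed, and dashed lines the 1.5-fold threshold in both directions. FOSL2 and JUN stay beyond the threshold in all 3, FOSL1 and JUND cross back under it, and the intervals of the other 6 include 0.

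The promoters of the called members are shown because AP-1 genes can be bound by AP-1 itself. RefSeq windows of 300 bases (GRCh38.p14, from 250 bases before to 50 after the start site, written 5′ to 3′ on the gene's strand) matched 7 of the 10 members. FOSL1 and IER3 had no entry, and the chromosome of MYC was left out of the search, so MYC was not examined. Capitals mark a match to TGACTCA (the AP-1 site), TGACGTCA (the cAMP response element, CRE) or TGACATCA (the variant known from the JUN promoter), searched on both strands. The JUN window lies at chr1:58783998-58784297 on the minus strand, the JUND window at chr19:18281573-18281872 on the minus strand and the FOSL2 window at chr2:28392608-28392907 on the plus strand.
JUN: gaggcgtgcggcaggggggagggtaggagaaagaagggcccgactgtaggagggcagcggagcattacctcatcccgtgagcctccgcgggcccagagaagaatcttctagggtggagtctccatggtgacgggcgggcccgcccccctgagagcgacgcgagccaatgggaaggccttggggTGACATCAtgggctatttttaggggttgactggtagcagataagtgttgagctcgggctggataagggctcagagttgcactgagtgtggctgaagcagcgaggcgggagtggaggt
JUND: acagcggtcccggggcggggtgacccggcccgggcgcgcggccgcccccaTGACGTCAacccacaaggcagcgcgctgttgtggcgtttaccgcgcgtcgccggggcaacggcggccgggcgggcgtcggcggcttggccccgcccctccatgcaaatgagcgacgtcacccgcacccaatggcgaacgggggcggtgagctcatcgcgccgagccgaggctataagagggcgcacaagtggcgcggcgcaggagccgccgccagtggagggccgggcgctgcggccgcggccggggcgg
FOSL2: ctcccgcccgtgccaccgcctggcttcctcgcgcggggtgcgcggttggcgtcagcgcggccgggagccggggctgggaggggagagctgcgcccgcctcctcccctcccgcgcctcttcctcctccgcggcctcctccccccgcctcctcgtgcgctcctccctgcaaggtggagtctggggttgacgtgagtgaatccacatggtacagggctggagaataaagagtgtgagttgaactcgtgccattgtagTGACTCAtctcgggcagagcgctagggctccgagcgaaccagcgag

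Each of the 3 windows held a different one of these motifs. JUN held TGACATCA starting at position -67 from the start site. This variant was searched because it is known from the JUN promoter, so the match in JUN was fixed in advance and is no finding. The sequence is present in 2.61% of the 35116 RefSeq promoters. JUND held TGACGTCA at -200, present in 1.85% of promoters, and FOSL2 held TGACTCA at 4, just after the start site, present in 4.95%. The first of 2 MAFF windows also held TGACGTCA, at -54, although MAFF mRNA did not pass the test. The FOS, JUNB and FOSB windows held none of the 3, only the shorter TGACG, which 24.6% of promoters contain and which also forms part of TGACGTCA. The E-box CACGTG, bound by MYC with MAX and present in 7.26% of promoters, occurred among the matched members in both MAFF windows. The CArG box, bound by SRF and present in 1.29% of promoters, was found in none of the windows. Sites further than 250 bases before the start were not searched, and the letters of a window say nothing about binding in these cells.

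MYC mRNA showed no difference that the libraries could resolve. Normalized counts were 1541, 910.5 and 1441 in Vector and 1359, 1234 and 1274 in shEZH2. The knockdown libraries lay between the low Vector replicate 2 and the other controls. The means of 1298 ± 339 and 1289 ± 63.9 gave a log2 fold change of 0.03 (SE 0.21, 95% interval -0.46 to 0.52, limma adjusted p = 0.950). Its sign depended on the model, the scaling and the libraries used, positive in 9 and negative in 7 of 16 alternatives, and without Vector replicate 2 it was -0.21 (adjusted p = 0.173). MYC lies at chr8:127735434-127741434 on the plus strand and is 3001 bases long.

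MAFF encodes a small MAF protein, which lacks an activation domain and acts as a DNA-binding partner for other bZIP factors such as NRF2. It was abundant, with 8220.2, 6293 and 7965 normalized counts in Vector and 7301, 6040.2 and 6576 in shEZH2. The ranges overlapped. The log2 fold change was -0.17 (SE 0.16, 95% interval -0.55 to 0.21, limma adjusted p = 0.549), negative in all 16 alternatives, and -0.29 without Vector replicate 2 (adjusted p = 0.0595). MAFF (chr22:38200767-38216511, plus strand) shares 4924 bases with PLA2G6 on the other strand, and reads of the pair may not be fully separated.

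IER3, a stress-inducible immediate early gene with anti-apoptotic action, was the most variable member among the controls. It had 5445, 2365 and 5400.4 normalized counts in Vector and 4748, 4279 and 4123 in shEZH2. Vector replicate 2 held less than any other library, and the knockdown libraries lay below Vector replicates 1 and 3. The log2 fold change was 0.09 (SE 0.32, 95% interval -0.65 to 0.83, limma adjusted p = 0.879) over 6 libraries and -0.31 (adjusted p = 0.0387) without Vector replicate 2. IER3 is the shortest member (1356 bases, chr6:30743199-30744554, minus strand), and genes of like length were lower in Vector replicate 2 by a median of -0.81 (log2), against -1.20 for IER3. It shares 394 bases with IER3-AS1 on the other strand (mean 7.64 normalized counts).

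Levels of different genes were compared per kilobase of gene length. In Vector, IER3 (3247 ± 1302 normalized counts per kilobase) and FOSL1 (2455 ± 481) came first, and their difference was smaller than the SD of IER3. MAFF followed with 1334 ± 186, then JUND (513 ± 86.4) and MYC (432 ± 113), which differed by less than their SDs, then JUNB (273 ± 99.3), FOSL2 (207 ± 50.6) and JUN (197 ± 28.9), whose neighbours were likewise within their SDs, and FOS (148 ± 35.1). FOSB was last with 31.1 ± 7.33. In shEZH2, FOSL1 (3915 ± 206) was above IER3 (3232 ± 239.9) by more than their SDs, and MAFF (1182 ± 113) and JUND (798 ± 142) kept their places. FOSL2 (425 ± 19.6) and JUN (402 ± 38.1) there lay beside MYC (429 ± 21.3) and JUNB (343 ± 86.7), each within the SD of its neighbour, ahead of FOS (193 ± 6.42) and FOSB (34.0 ± 6.82).

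The makeup of each family was described as each member's share of the family's summed level per kilobase. The FOS family summed to 2841 ± 471 normalized counts per kilobase in Vector and 4567 ± 219.7 in shEZH2, and the JUN family to 983 ± 213 and 1542 ± 265. FOSL1 made up 86.1% ± 2.90 of the FOS family in Vector and 85.7% ± 0.540 in shEZH2, a difference within the spread. FOSL2 held 5.51%, 11.5% and 5.91% in the Vector libraries and 8.97%, 9.46% and 9.51% in the shEZH2 libraries. Vector replicate 2 was above all knockdown libraries in this share, and the other controls were below them. The share of JUN within its family was 19.3%, 22.3% and 19.4% in Vector and 23.9%, 27.5% and 27.4% in shEZH2, without overlap. JUND remained the largest part of the JUN family, with 52.6% ± 3.31 and 51.7% ± 0.353.

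**Figure D4:**
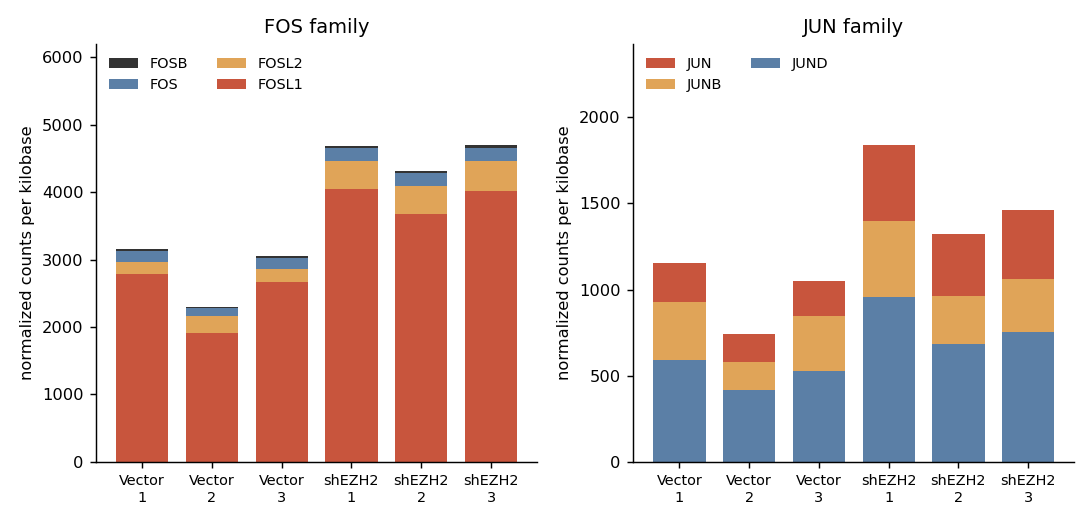
Stacked normalized counts per kilobase of the FOS family (left) and the JUN family (right) in each library. FOSL1 forms over 80% of every FOS family bar, and the JUN family bars are higher in all shEZH2 libraries than in any Vector library, with JUND as the largest segment.

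Ratios between members were taken within each library from normalized counts, without a correction for length. FOSL2 (7157 bases) is longer than its partners MAFF (5615) and FOSB (5553), and the other pairs are closer in length. The length trend of Vector replicate 2 may therefore remain in the ratios that involve FOSL2. The 7 pairs were chosen after the values were seen, so the ratios are a description with no test. The ratio of JUN to MYC was 0.511, 0.645 and 0.502 in Vector and 1.15, 1.04 and 1.11 in shEZH2, a log2 difference of 1.00. JUN over FOS was 1.29 to 1.68 in Vector and 1.99 to 2.55 in shEZH2 (log2 difference 0.62), and FOSL2 over MAFF was 0.152, 0.302 and 0.162 against 0.412, 0.483 and 0.486 (1.23). The groups did not overlap in these 3 pairs. In the other 4 pairs they overlapped. FOSL2 over FOSB was at most 7.14 in Vector replicates 1 and 3, 14.8 in Vector replicate 2 and 16.5, 18.9 and 13.9 in shEZH2 (log2 difference 0.93), with Vector replicate 2 above shEZH2 replicate 3. FOSL1 over JUND, the most abundant member of each family, was 4.79, 4.60 and 5.12 against 4.28, 5.44 and 5.41 (0.05), and the log2 difference was 0.31 for FOSL1 over JUNB and 0.26 for JUND over JUNB.

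Related genes were read from lists of their roles. A list of other bZIP genes held AP-1 partners and relatives, such as the ATF, CREB, BATF and JDP2 genes (13 tested of 14). Pairing with FOS or JUN proteins was not tested. In this list 0 were called higher, where 7.55% of all genes tested were (1 at an unadjusted p under 0.05 with limma, 0 called with DESeq2 and 0 with edgeR). Of the same list 1 was called lower, where 7.07% of all genes were. That gene was ATF6, a sensor of endoplasmic reticulum stress, with 2669 normalized counts in Vector and 1788 in shEZH2 (log2 fold change -0.59, limma adjusted p = 0.0766). It was not called with the TMM scaling of edgeR or with the gene length trend removed (-0.48). Nor was it called without Vector replicate 2 (-0.54) or without shEZH2 replicate 1. In other fits 3 genes of this list were called higher without Vector replicate 1 and 1 without shEZH2 replicate 2. The list's median log2 fold change was 0.31, or 0.10 without Vector replicate 2. Of the other MAF and CNC factors (10 tested of 12), which include the small MAF genes MAFG and MAFK, 0 were called higher and 2 lower. Over all genes tested, 7.55% were called higher and 7.07% lower. At an unadjusted p under 0.05 alone, 0 of this list were higher and 3 lower with limma. DESeq2 and edgeR (TMM scaling) each called 0 higher and 3 lower. MAF, a bZIP regulator of differentiation, fell from 388 to 202 normalized counts (log2 fold change -0.94, limma adjusted p = 0.0311), and NFE2L3, a relative of NRF2, fell from 99.7 to 48.9 (-0.99, limma adjusted p = 0.0885). Their list had a median of -0.40, or -0.29 without Vector replicate 2.

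Of the other immediate early genes (46 tested of 49), 11 were called higher, or 23.9%, where 7.55% of all genes tested were. In this list 3 were called lower, where 7.07% of all genes were, and the median was 0.41. The counts were 9 and 3 without Vector replicate 2, where the median was 0.12. Without Vector replicate 1 or without Vector replicate 3, 16 genes were called higher. Over all genes, 1535 and 1442 were called higher in those fits, against 1151 with all libraries. CTGF, a matricellular protein gene, rose from 662 to 5571 normalized counts (log2 fold change 3.11, limma adjusted p = 0.00316), and its relative CYR61 from 938 to 3240 (1.83, limma adjusted p = 0.00994). GADD45B, a stress-induced growth arrest gene, rose from 79.5 to 234 (1.65, limma adjusted p = 0.0446). EGR1, named after its values were seen because it is a serum-induced gene of the same class as FOS, rose from 1902 to 5012 (1.40, limma adjusted p = 0.00607). In the other direction, NFKBIZ, a nuclear regulator of NF-kB targets, fell from 2522 to 1384 (-0.86, limma adjusted p = 0.0177), the orphan nuclear receptor NR4A2 from 2280 to 1267 (-0.85, limma adjusted p = 0.0249) and EGR3, a relative of EGR1, from 609.5 to 376 (-0.70, limma adjusted p = 0.0304). The immediate early genes thus did not move one way.

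Of the kinases and promoter factors upstream of AP-1 (30 tested of 32), 2 were called higher, or 6.67%, where 7.55% of all genes tested were. In this list 1 was called lower, where 7.07% of all genes were, so neither count was above the share over all genes. The list's median log2 fold change was 0.19. MAPK3, which encodes ERK1, went from 806 to 1338 normalized counts (log2 fold change 0.74, limma adjusted p = 0.0534), and MAP2K6, an activator of p38, from 94.3 to 163 (0.78, limma adjusted p = 0.0786). ELK4, an SRF partner, went from 3313 to 1968 (-0.71, limma adjusted p = 0.169). It was not called without Vector replicate 2 (-0.42), without shEZH2 replicate 1, without shEZH2 replicate 3 or with the gene length trend removed. Leaving out Vector replicate 2 gave 4 higher and 0 lower, and 2 were lower without Vector replicate 3. Of known AP-1 target genes (29 tested of 40), 7 were called higher, or 24.1%, where 7.55% of all genes tested were. In the same list 2 were called lower, where 7.07% of all genes were. Among genes with a mean of at least 50, only 3 targets were called higher, as were 803 of all 11891 genes. After adjustment 2 targets were higher, where 2.28% of all genes were. The list's median was 0.29, or 0.04 without Vector replicate 2. MT2A, a metallothionein, went from 4164 to 10554 (log2 fold change 1.77, limma adjusted p = 0.203), but Vector replicate 2 held only 788 and without it the difference was 0.81. IL11, a cytokine of the IL-6 family, went from 69.5 to 150.3 (1.11, limma adjusted p = 0.0800), while CXCL8, another cytokine, fell from 572 to 314 (-0.85, limma adjusted p = 0.0476) and the chromatin protein gene HMGA2 went from 855 to 549 (-0.64, limma adjusted p = 0.0761). Without Vector replicate 2 the list had 6 higher and 4 lower, without shEZH2 replicate 1 it had 4 higher and 1 lower, 4 were higher without shEZH2 replicate 3, and 1 was lower without Vector replicate 1.

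In the MYC and MAX network (20 tested of 22), 4 genes were called higher and 1 lower, with a median of 0.00. Over all genes tested, 7.55% were called higher and 7.07% lower. Only 1 and 0 in the network remained without Vector replicate 2, where its median was -0.11. MXD4, an antagonist of MYC that competes for MAX, went from 179 to 304 normalized counts (log2 fold change 0.75, limma adjusted p = 0.0609). The helicase gene RUVBL1 (0.68, limma adjusted p = 0.106) and MYCBP (0.66, limma adjusted p = 0.115) were not called without Vector replicate 2. MXD1, another antagonist, went from 372 to 238 (-0.62, limma adjusted p = 0.138), and the count of lower genes was 0 without shEZH2 replicate 1 and 2 without Vector replicate 1 or 3. Among direct MYC targets (40 tested of 41), the transferrin receptor gene TFRC rose from 2625 to 4714 (0.84, limma adjusted p = 0.0306) as the 1 gene called higher, and 0 were called lower (2 at an unadjusted p under 0.05, 1 called with DESeq2 and 1 with edgeR). Their median was 0.08, or -0.11 without Vector replicate 2. Without Vector replicate 1 the counts were 4 higher and 2 lower, without Vector replicate 3 they were 3 and 2, and 2 were lower without shEZH2 replicate 2.

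**Figure D5:**
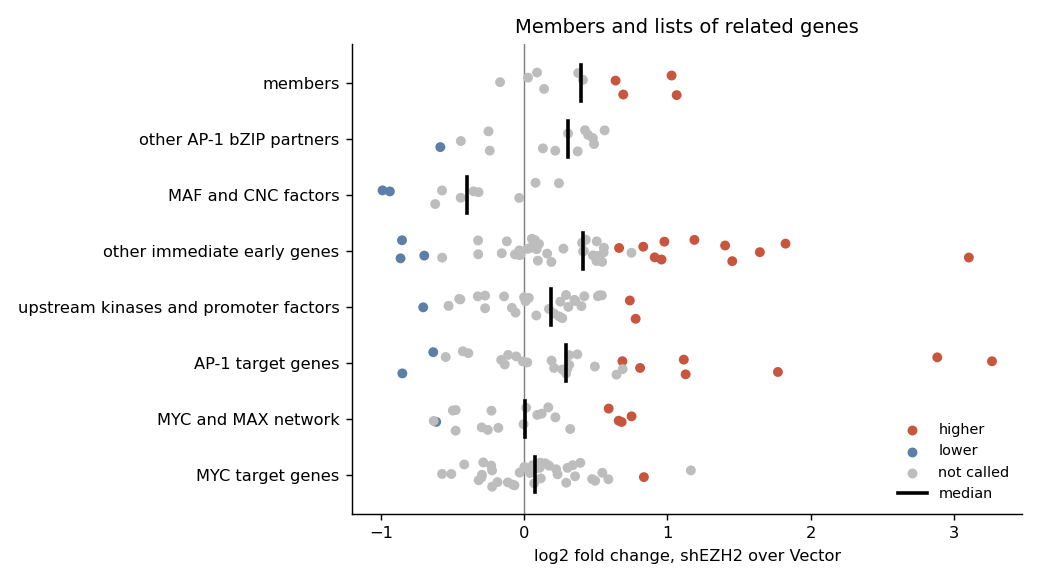
Log2 fold change of each tested gene, shEZH2 over Vector, for the 10 members and 7 lists of related genes. Red points were called higher, blue points lower and grey points neither, and black bars are list medians. The medians run from -0.40 for MAF and CNC factors to 0.41 for the other immediate early genes.

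For 3 members the genes with the most similar profile were found, as Pearson correlation of log2(normalized count + 1) over the 6 libraries among 11891 genes with a mean of at least 50. The closest to FOSL1 were ANXA2P2, DUSP1 and PEBP1, each with r = 0.998. The closest to JUND were MED22 (r = 0.998), SLC25A10 (r = 0.998) and ARHGAP33 (r = 0.997), and the closest to MYC were PLGRKT (r = 0.998), HES4 (r = 0.997) and RPL7AP6 (r = 0.996). Each is among the highest of 11891 correlations over only 6 libraries, so values near 1 can come from this selection alone. The points share Vector replicate 2, which lies low in all 3 members. For FOSL1 and JUND they also share the difference between the groups. ANXA2P2 and RPL7AP6 are copies of other genes, so the reads counted on them are uncertain.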

How the data were processed

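Poly(A) RNA of HMV-II cells gave 3 Vector and 3 shEZH2 libraries. Reads were counted by the authors with featureCounts 1.5.0-p3 and divided by DESeq2 1.20.0 size factors, per the labels and the values, so the deposited signal values are normalized counts. In each library 100% of values were whole multiples of 1 read (tolerance 0.01 read), which gave back the reads, 13400290 to 19128939 per library. The table's own fold changes and p-values were not used, 0 columns of single libraries were left unused, and its group means matched the columns assigned to each group. The submitters' notes name hg19, but the table's coordinates are GRCh38 (47.7% of 20629 genes share an end with GRCh38, 0.708% with GRCh37).

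Groups were compared with limma 3.58.1 (R 4.3.3, lmFit and eBayes with trend) on log2(normalized count + 1) over 15251 genes with a mean of at least 10, at the study's threshold, an unadjusted p under 0.05 and a change of more than 1.5-fold, with Benjamini-Hochberg adjustment over all of them. Fold changes on this scale understate those of low genes. The exact two-sided permutation test ran over 20 arrangements (smallest p 0.1). The alternatives were count models on the reads (DESeq2 1.42.0, edgeR 4.0.16), pseudocounts of 0.1 and 5, other minimums, a replicate block, stricter thresholds and each library left out. Removal of the gene length trend (loess, span 0.5) was added after the data were seen. Like-length medians used the nearest 500 genes. The models were tested on simulated data that held no length trend and no library that stood apart, so that test does not cover the trend of Vector replicate 2. From each list the 3 highest and 3 lowest called genes with a mean of at least 50 were named, of the markers the 3 most abundant, and for FOSL1, JUND and MYC the 3 most similar genes. The result of 1 gene under this rule is not reported here. The members and lists were chosen with earlier results of these data known.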

Additional observations from a re-analysis of the deposited data

How the results depend on the processing

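The 4 members called higher were 4 with DESeq2, every edgeR scaling, both pseudocounts, no minimum, a mean of at least 50 and the replicate block. They were 2 (JUN and FOSL2) with the gene length trend removed, with a log2 fold change above 1 or with an adjusted p under 0.05, and 2 to 4 when single libraries were left out (2 without Vector replicate 2, 3 without shEZH2 replicate 1). FOSL1 and JUND lost their calls with the length trend removed (0.45 and 0.40) and without Vector replicate 2 (0.52 and 0.50), and JUND without shEZH2 replicate 1 (0.50). The members called lower stayed at 0, no member's call reversed, and over all genes tested 1151 were higher and 1078 lower, against 463 and 335 with a log2 fold change above 1 and 345 and 279 with both an adjusted p and the fold threshold. Same-numbered libraries of the 2 groups correlated in their deviations from the group mean by 0.28, 0.22 and -0.11. Vector replicate 3 with shEZH2 replicate 1 gave 0.25. The mean of the Vector libraries includes Vector replicate 2 with its length trend, so these values cannot tell whether the numbers pair the libraries. With the replicate block 4 members were higher, and 1322 genes were higher and 1112 lower. The lowest member, FOSB, had 110 reads or more in each library. Other limits are the 3 libraries per group and the length trend of Vector replicate 2, whose cause was not tested.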
